A study of Mus musculus with 6 samples.

Results

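The 10 genes described here carry out MHC class I and class II antigen presentation. They were chosen by name, as every spot whose gene name in the scanner files was B2m, H2-K1, H2-D1, Tap1, Tap2 (class I), Cd74, H2-Aa, H2-Ab1, H2-Eb1 or Ciita (class II), a rule that uses no measured value. All 10 genes were found on the array, on 12 probes and 30 spots, among 20923 genes tested. The RNA came from side population cells, which pump out Hoechst dye, of anterior pituitaries of female mice, with those of the highest Sca1 level left out. This fraction is named stem cell side population in the labels. All mice carried iDTR, an inducible diphtheria toxin receptor, and were given the toxin 2 times a day, each dose being 4 ng for each gram of body weight. GHCre/iDTR mice also carried Cre recombinase driven by the growth hormone promoter, which makes growth hormone cells toxin sensitive, and -/iDTR mice, called control, had no Cre. The 6 arrays were 2 GHCre and 2 control arrays after 3 days of toxin, and 1 GHCre and 1 control array after 10 days. Cre is thus driven in growth hormone cells, whereas the sorted fraction is the side population. The age of the mice and the number of mice in a sort were not given in the sources used here, so p-values measure the spread between these samples only.

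Free-text descriptions of 3 arrays (GHCre after 10 days, control after 10 days and control replicate 2 after 3 days) name another condition than their titles. Groups follow the titles, with which the fields for genotype and toxin treatment agree, and the values under the descriptions are given at the end of the comparisons. Arrays lay on 3 slides: slide 1 held replicate 1 of both genotypes after 3 days, slide 3 held their replicate 2 and the GHCre array of 10 days, and slide 2 held the control array of 10 days. The 75th percentile of the signal ran from 186.1 to 298.5 and the share of probes above background from 53.8% to 65.7%, both lowest in control replicate 1 after 3 days. Sox2, a defining gene of pituitary stem cells, was not well above background on any of the 6 arrays, and Prl, the prolactin transcript of lactotrophs, stood at 10.35 or above on every array. Gh, the transcript of the ablated cells, had levels of 5.46 and 2.20 in GHCre and 5.69 and 3.65 in control after 3 days, and 2.21 in GHCre and 7.86 in control after 10 days. The gap after 10 days was not confined to Gh. Of 6 hormone genes tested, Gh included, 5 were then lower in GHCre, with a median difference of -3.78. All levels are log2 of the signal over the 75th percentile of its array, and all differences are GHCre minus control on the log2 scale unless stated otherwise.

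MHC class I molecules sit on nearly all nucleated cells and show peptides of the cell's own proteins to CD8 T cells. A heavy chain pairs with beta-2 microglobulin, and peptides reach it through the transporter formed by Tap1 and Tap2. Class II molecules are made chiefly by dendritic cells, macrophages and B cells and show peptides from taken-up material to CD4 T cells. Their alpha and beta chains are escorted by the invariant chain, Cd74, and their transcription depends on the coactivator Ciita. Interferon gamma raises both classes in many cell types, class I through Irf1 and Nlrc5, and class II through Ciita.

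The promoters of these genes share elements, so they are shown before the levels. The windows run from 250 bases before to 50 bases after the start of the gene and come from RefSeq on GRCm38.p6, with the windows of 6 of the 10 genes used. Capitals mark matches on either strand to the interferon regulatory factor core AANNGAAA, the longer interferon-stimulated response core that contains it, the kB consensus named for NF-kB, and the X2-Y pair, which is TGANG followed after 12 to 25 bases by ATTGG. The motifs were chosen after the sequences had been read, and matches are descriptions, not known binding sites.
Class I, B2m, plus strand, chr2:122147437-122147736: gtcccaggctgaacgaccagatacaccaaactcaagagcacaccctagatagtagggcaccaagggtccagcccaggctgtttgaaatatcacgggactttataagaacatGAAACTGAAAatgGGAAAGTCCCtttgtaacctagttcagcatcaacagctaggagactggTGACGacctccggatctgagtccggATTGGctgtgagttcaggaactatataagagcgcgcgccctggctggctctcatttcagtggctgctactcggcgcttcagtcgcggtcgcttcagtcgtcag
Class I, H2-K1, minus strand, chr17:34000298-34000597: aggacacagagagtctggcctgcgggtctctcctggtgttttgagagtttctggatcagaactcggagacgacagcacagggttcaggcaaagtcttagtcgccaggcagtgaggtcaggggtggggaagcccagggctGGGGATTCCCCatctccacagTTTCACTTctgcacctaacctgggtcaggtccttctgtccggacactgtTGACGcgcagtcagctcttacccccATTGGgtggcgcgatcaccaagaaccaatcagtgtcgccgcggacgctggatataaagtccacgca
Class I, H2-D1, plus strand, chr17:35262844-35263143: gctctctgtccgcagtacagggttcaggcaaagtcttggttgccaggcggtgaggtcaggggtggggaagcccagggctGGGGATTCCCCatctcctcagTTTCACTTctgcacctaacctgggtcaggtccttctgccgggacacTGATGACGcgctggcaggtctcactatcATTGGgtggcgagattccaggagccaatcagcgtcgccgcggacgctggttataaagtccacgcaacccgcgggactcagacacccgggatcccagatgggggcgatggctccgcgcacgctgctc
Class II, H2-Aa, minus strand, chr17:34287774-34288073: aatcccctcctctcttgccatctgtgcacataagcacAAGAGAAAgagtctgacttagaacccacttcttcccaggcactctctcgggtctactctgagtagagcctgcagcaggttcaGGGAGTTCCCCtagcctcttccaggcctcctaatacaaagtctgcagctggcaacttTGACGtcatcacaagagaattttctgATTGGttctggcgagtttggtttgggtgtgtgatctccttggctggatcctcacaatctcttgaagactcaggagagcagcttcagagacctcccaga
Class II, H2-Eb1, plus strand, chr17:34305617-34305916: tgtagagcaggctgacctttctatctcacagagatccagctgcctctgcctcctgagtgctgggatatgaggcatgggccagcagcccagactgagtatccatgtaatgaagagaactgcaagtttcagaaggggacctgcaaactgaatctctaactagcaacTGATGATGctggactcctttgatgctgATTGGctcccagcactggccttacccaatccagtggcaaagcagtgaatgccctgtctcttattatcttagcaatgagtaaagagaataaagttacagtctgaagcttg

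An X2-Y pair was found in 5 of the 6 windows, from both classes, and in 3.4% of the 32851 windows of this length in the table. In B2m it runs from -78 to -49 relative to the start. A kB match was found in 4 of 6 windows (B2m, H2-K1, H2-D1 and H2-Aa), against 4.51% of all windows. The interferon regulatory factor core was also found in 4 of 6, against 23.9% of all windows. The H2-K1 and H2-D1 windows are nearly alike in sequence around their matches, so the counts of windows are not of independent sequences. The longer interferon response core was found in B2m alone among the 6, against 3.44% of all windows. The gamma-activated core TTCNNNGAA was found in 0 of 6, against 8.30% of all windows. ATTGG by itself was in all 6 windows, against 37.4% of all windows, and in Tap1 it was the only match. In background knowledge, the X and Y boxes bind the RFX complex, CREB family factors and NF-Y, on which Ciita and Nlrc5 assemble.

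After 3 days, 9 of the 10 genes had a higher mean in GHCre than in control arrays, and Ciita a lower one. The median difference was 0.99 over the 5 class I genes and 2.33 over the 5 class II genes, against -0.04 over all 20923 genes, of which 48% were above 0. In this test, limma fitted across all genes with Benjamini-Hochberg adjustment, no gene on the array passed an adjusted p of 0.05 (percent called 0%), and neither did any of the 10. At an unadjusted p under 0.05 the fit held 1376 genes (6.58%), among them Tap2 and H2-Ab1. For 8 of the 10 genes both GHCre arrays lay above both control arrays, as they did for 16.7% of all genes tested. For B2m, H2-K1, H2-D1, Tap2 and H2-Ab1 the GHCre arrays of 3 days were the highest of all 6, as for 6.85% of all genes. In these bulk samples, more cells that carry a transcript and more transcript in each cell cannot be told apart.

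**Figure D1:**
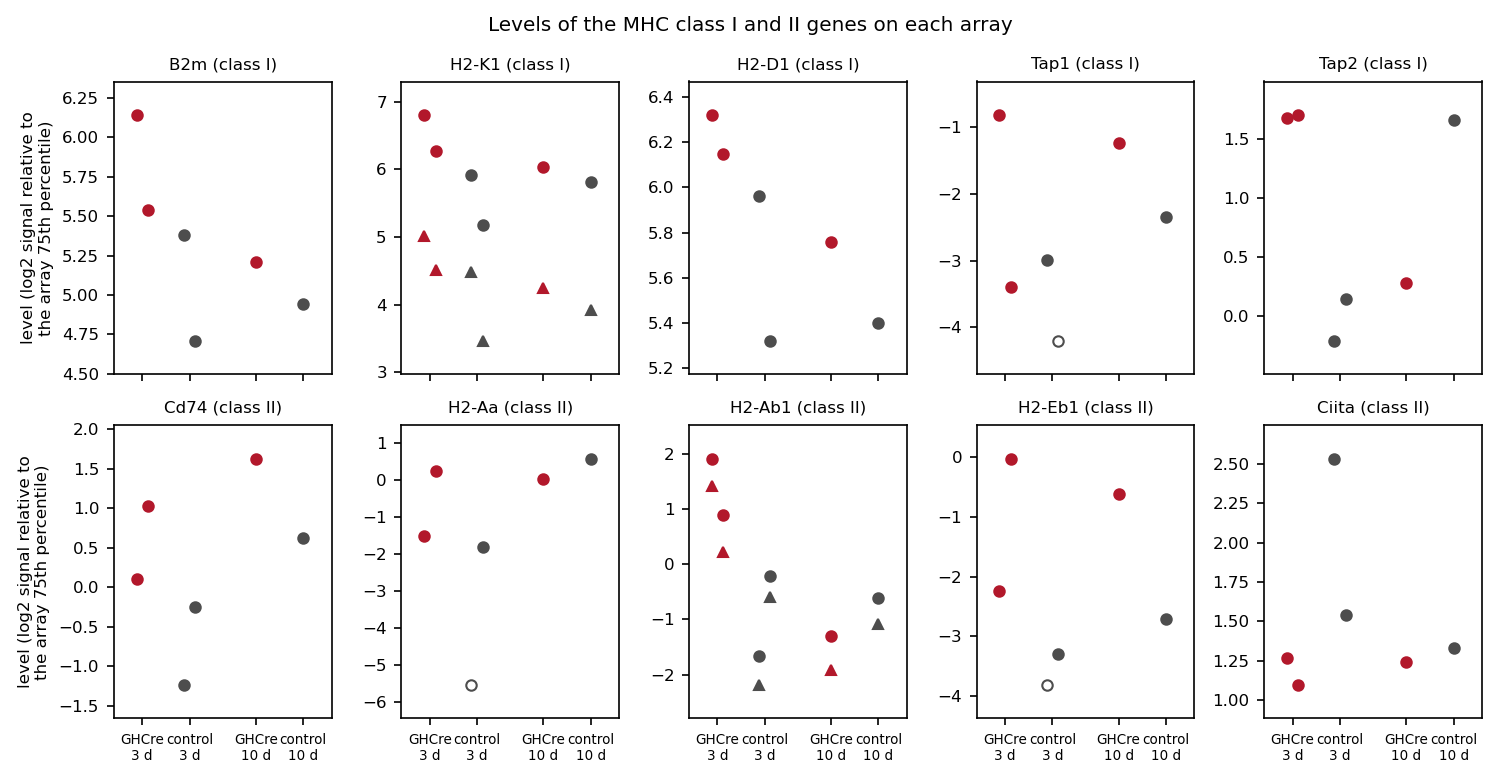
Level of each gene (log2 of signal over the 75th percentile of its array) on the 6 arrays by genotype and day, GHCre in red and control in grey, with replicate 1 left of replicate 2. Triangles are the other probe of H2-K1 and H2-Ab1, and open symbols are values not well above background. Tap1 overlaps between genotypes after 3 days, and Ciita is lower in GHCre.

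The class I molecule itself is made of a heavy chain and B2m. B2m (probe at chr2:121978401-121978460, mm9) had levels of 6.14 and 5.54 in GHCre and 5.38 and 4.71 in control arrays after 3 days, and 5.21 in GHCre and 4.94 in control after 10 days. Replicate 2 of GHCre and replicate 1 of control lay close together, and replicate 1 was the higher in both genotypes. The difference was 0.79 ± 0.50 (SE, adjusted p = 0.862, limma) after 3 days and 0.27 ± 0.71 after 10 days.

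H2-K1, a classical class I heavy chain, was measured by 2 probes. The probe printed in 10 spots (chr17:34133055-34133114, mm9) read 6.80 and 6.27 in GHCre and 5.92 and 5.18 in control after 3 days, and 6.03 in GHCre and 5.82 in control after 10 days. Its spots on an array spread by an SD of 0.0317 to 0.052, far less than replicate arrays did. The other probe (chr17:34133984-34134043) read 5.02 and 4.51 in GHCre and 4.49 and 3.47 in control after 3 days, and 4.25 in GHCre and 3.93 in control after 10 days. Both probes placed the arrays of 3 days in the same order and put the GHCre arrays highest, by 0.99 ± 0.51 (adjusted p = 0.835, limma) for the gene and 0.79 ± 0.58 for the other probe. One of the 2 H2-K1 probes shares a run of 29 bases with the probe of H2-T23, a nonclassical class I gene, so the signals of these relatives were not separated.

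H2-D1, the other classical heavy chain here (chr17:35403886-35403945, mm9), had levels of 6.32 and 6.15 in GHCre and 5.96 and 5.32 in control after 3 days, and 5.76 in GHCre and 5.40 in control after 10 days. Its spread over the 6 arrays, 1.00, was the narrowest among the probes of the 10 genes. The difference after 3 days was 0.60 ± 0.46 (adjusted p = 0.869, limma), and after 10 days 0.37 ± 0.65.

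The transporter subunits differed from each other in pattern. Tap1 (10 spots, chr17:34330854-34330913, mm9) had levels of -0.82 and -3.39 in GHCre and -2.99 and -4.20 in control after 3 days, and -1.23 in GHCre and -2.35 in control after 10 days. The value of control replicate 2 was not well above background, and the genotypes overlapped after 3 days because GHCre replicate 2 lay below control replicate 1. The difference was 1.49 ± 1.08 (adjusted p = 0.867, limma), and without GHCre replicate 1 it was 0.20. Its 10 spots spread by an SD of up to 0.514 on an array.

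Tap2 (chr17:34353116-34353175, mm9) had levels of 1.68 and 1.70 in GHCre and -0.21 and 0.14 in control after 3 days, and 0.28 in GHCre and 1.66 in control after 10 days. Replicates lay close together, and the control array of 10 days stood as high as the GHCre arrays of 3 days. The difference was 1.72 ± 0.41 after 3 days (unadjusted p = 0.0137, adjusted p = 0.692, limma) and -1.37 ± 0.58 after 10 days (adjusted p = 1). The 10 day effect minus the 3 day effect was -3.10 ± 0.71 (unadjusted p = 0.0121, adjusted p = 1, limma), a comparison in which 3.94% of all genes fell under 0.05 unadjusted and 0% passed after adjustment.

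In class II, Cd74, the invariant chain that escorts the alpha and beta chains (chr18:60972075-60972132, mm9), had levels of 0.11 and 1.03 in GHCre and -1.23 and -0.25 in control after 3 days, and 1.62 in GHCre and 0.62 in control after 10 days. GHCre was higher at both times, without overlap after 3 days, and the highest array of the 6 was GHCre after 10 days. The differences were 1.31 ± 0.61 (adjusted p = 0.817, limma) and 1.00 ± 0.87 (adjusted p = 1).

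H2-Aa, the alpha chain of I-A (chr17:34421285-34421344, mm9), had levels of -1.51 and 0.24 in GHCre and -5.52 and -1.80 in control after 3 days, and 0.04 in GHCre and 0.57 in control after 10 days. Control replicate 1 of 3 days was not well above background and stood far below the others. The difference was 3.03 ± 1.5 (adjusted p = 0.83, limma), and 1.16 without that array.

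H2-Ab1, the beta chain of I-A, was read by 2 overlapping probes. The brighter probe (chr17:34406296-34406355, mm9) read 1.90 and 0.88 in GHCre and -1.66 and -0.22 in control after 3 days, and -1.31 in GHCre and -0.62 in control after 10 days. The other probe (chr17:34406305-34406363) read 1.41 and 0.21 in GHCre and -2.18 and -0.60 in control after 3 days, and -1.91 in GHCre and -1.08 in control after 10 days. Both put the GHCre arrays of 3 days clear of all the others and the GHCre array of 10 days below its control. The difference after 3 days was 2.33 ± 0.74 (unadjusted p = 0.0337, adjusted p = 0.741, limma), and 2.20 ± 0.81 by the other probe. Between 3 and 10 days within GHCre the level of H2-Ab1 differed by -2.70 ± 0.90 (10 minus 3 days, unadjusted p = 0.0401, adjusted p = 1, limma).

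H2-Eb1, the beta chain of I-E (chr17:34453075-34453134, mm9), had levels of -2.25 and -0.03 in GHCre and -3.81 and -3.30 in control after 3 days, and -0.62 in GHCre and -2.71 in control after 10 days. GHCre was above control at both times, and control replicate 1 of 3 days was not well above background. The differences were 2.42 ± 0.89 (adjusted p = 0.759, limma) and 2.09 ± 1.26 (adjusted p = 1). The partner alpha chain gene of I-E was no member of the set.

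Ciita, the coactivator that class II transcription depends on (chr16:10526568-10526627, mm9), had levels of 1.27 and 1.10 in GHCre and 2.53 and 1.54 in control after 3 days, and 1.24 in GHCre and 1.33 in control after 10 days. Both GHCre arrays of 3 days lay below both controls, as for 21.3% of all genes, and the values other than those of the controls of 3 days lay within 1.10 to 1.33. The difference was -0.85 ± 0.53 (adjusted p = 0.861, limma) after 3 days and -0.09 ± 0.75 after 10 days. It was the only one of the 10 genes with a mean below control after 3 days.

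The Ciita probe has a repetitive sequence and held 23 distinct 5-base words out of 56, against 50 to 56 in the representative probes of the other members. Of all array probes, 0.401% held at most 30 distinct words, a limit set after these values were seen. The 157 of them that were tested had a median difference of -0.49 after 3 days, and 98.1% were below 0, against -0.02 and 51.2% for the 27095 other probes tested. Ciita lay in the direction of these probes, and 19 of the 157, Ciita included, were at or below its value. Centred on the 6 arrays, their median level was -0.13 and -0.30 in GHCre and 0.46 and -0.04 in control after 3 days, highest in the same array as Ciita. The signal of Ciita transcripts could not be told apart from what these probes share.

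**Figure D2:**
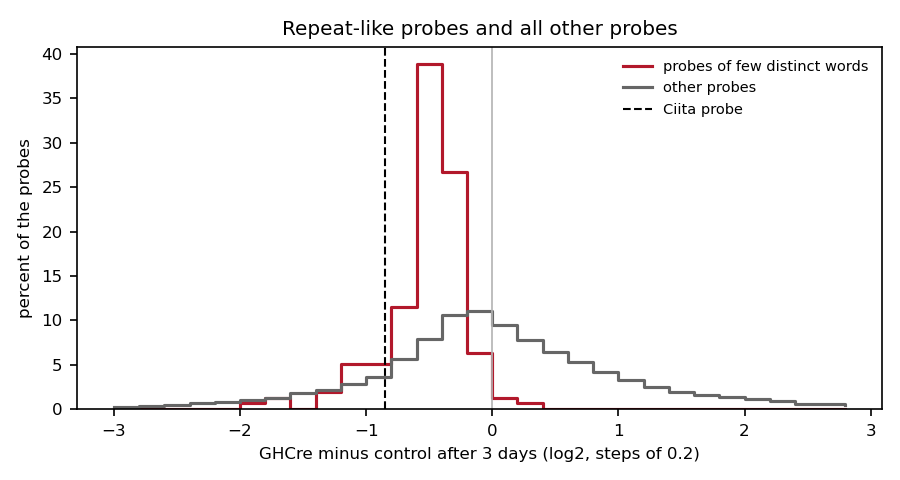
Share of probes (percent) by GHCre minus control difference after 3 days (log2, in steps of 0.2), for 157 probes with at most 30 distinct 5-base words in red and 27095 other probes in grey; values outside the axis are not drawn. The repeat-like probes centre on -0.49 with 98.1% below 0, and the dashed line is Ciita at -0.85.

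The classes were set against each other by their medians and by their profiles over the arrays. After 3 days all 5 class I genes were above 0 (0.60 to 1.72), and 4 of 5 class II genes were, from 1.31 to 3.03 with Ciita at -0.85. Without Ciita, whose probe is described above, the class II median was 2.37. The class I median minus the class II median was -1.35, and replicates of class II genes also spread more, with a median SD of 0.71 against 0.44 in class I. No test of the classes against each other was made, and this value narrowed or turned under other settings, to -0.13 with normexp background correction and to 0.19 without control replicate 1.

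**Figure D3:**
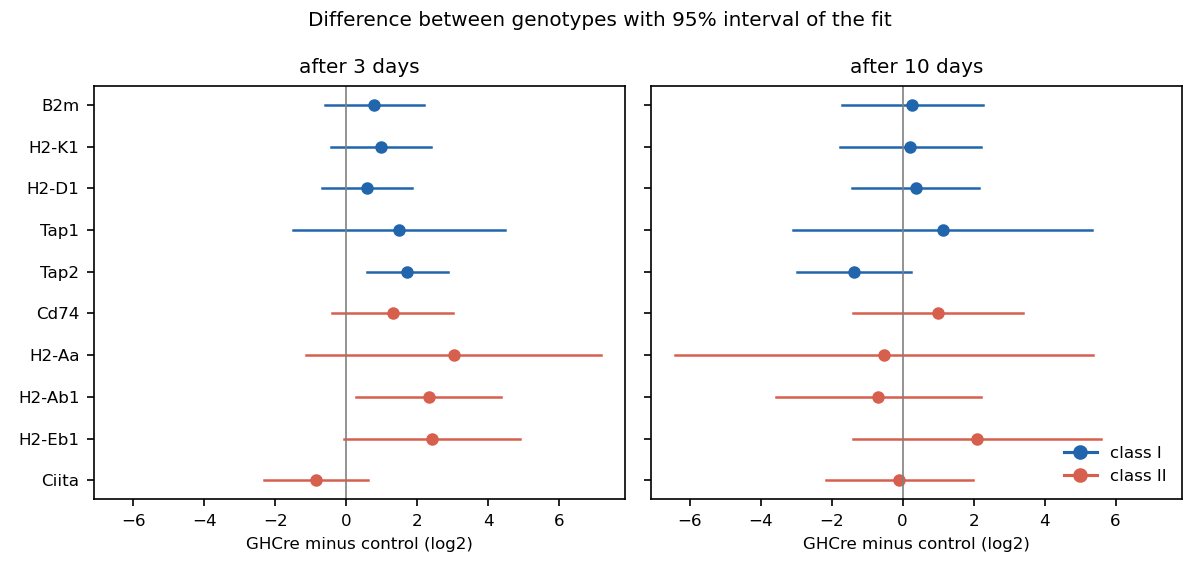
GHCre minus control (log2) for each gene with its 95% interval from the limma fit, after 3 days on the left and 10 days on the right, class I in blue and class II in orange. After 3 days 9 of 10 points lie above 0, and the intervals of Tap2 and H2-Ab1 do not reach it. After 10 days all intervals span 0.

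As a mean over its 5 genes, each centred on the 6 arrays, class I stood at 0.92 and 0.15 in GHCre and -0.29 and -0.87 in control after 3 days, and at 0.11 in GHCre and -0.01 in control after 10 days. Replicate 1 was above replicate 2 in both genotypes. Class II stood at 0.27 and 1.00 in GHCre and -1.58 and -0.45 in control after 3 days, and at 0.56 in GHCre and 0.20 in control after 10 days. Here replicate 2 was above replicate 1 in both genotypes, opposite to class I. Within slide 1 the class I median difference was 0.88 and within slide 3 it was 0.83, and for class II they were 1.56 and 1.28. In both slides 9 of 10 genes were above 0, against medians over all genes of -0.06 and -0.04. With slide as a block, 4 of the 10 genes and 6.96% of all genes had an unadjusted p under 0.05, against 2 genes and 6.58% without it, and 0 of all genes tested passed the adjusted threshold in either fit.

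**Figure D4:**
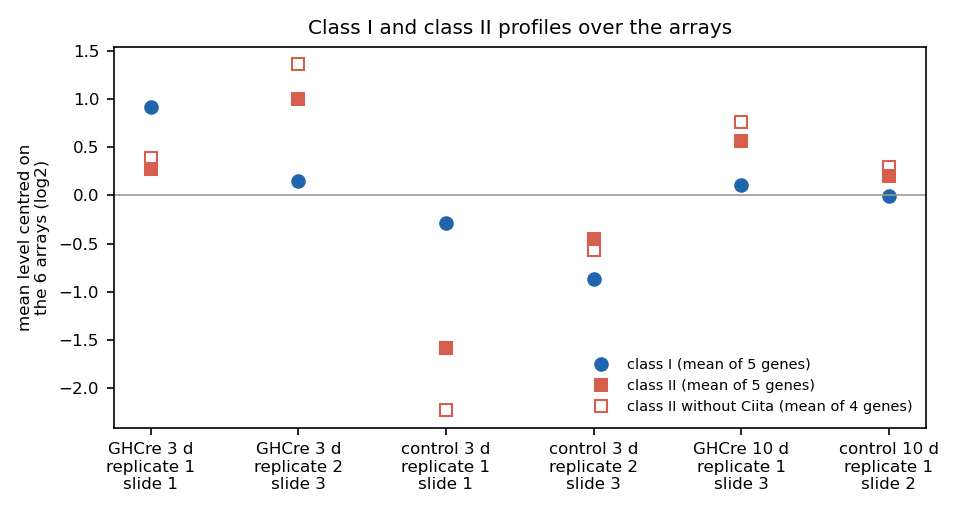
Mean centred level (log2) of the 5 class I genes (circles), the 5 class II genes (filled squares) and the 4 class II genes without Ciita (open squares) on each array. Class I is lowest in control replicate 2 after 3 days (-0.87) and class II in control replicate 1 (-1.58), while both GHCre arrays of 3 days are above 0 in both classes.

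By slide, the 4 arrays of 3 days gave each gene a pair of differences. B2m differed by 0.76 on slide 1 and 0.83 on slide 3, H2-K1 by 0.88 and 1.10, and H2-D1 by 0.36 and 0.83. Tap2 gave 1.89 and 1.56, whereas Tap1 gave 2.17 and 0.80. In class II, Cd74 gave 1.34 and 1.28, H2-Aa 4.01 and 2.04, H2-Ab1 3.57 and 1.10, and H2-Eb1 1.56 and 3.27. Cd74 was the most even of the class II genes, and Ciita was below 0 on both slides, at -1.26 and -0.44.

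After 10 days, where each genotype had 1 array and these lay on different slides, genotype and slide cannot be told apart, and the fit takes the spread from the arrays of 3 days. The class I median was 0.27 with 4 of 5 genes above 0, and the class II median -0.09, which is the value of Ciita, with 2 of 5 above 0, against 0.00 and 49.9% over all genes. Without Ciita the class II median was 0.24 with 2 of 4 above 0, a midpoint between Cd74 at 1.00 and H2-Aa at -0.53. Tap1, Cd74 and H2-Eb1 kept differences of 1.00 or more (1.13, 1.00 and 2.09), and Tap2, H2-Aa and H2-Ab1 were below 0 at -1.37, -0.53 and -0.69. None of the 10 passed the test (adjusted p = 1 for each, limma), as for 0% of all genes, and 0 of them had an unadjusted p under 0.05, against 3.02% of all genes.

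Taking the 10 day effect minus the 3 day effect, all 5 class I genes were below 0 with a median of -0.52, and 4 of 5 class II genes were below 0 with a median of -0.32, against 0.03 and 51.4% above 0 over all genes. Without Ciita all 4 class II genes were below 0 with a median of -1.67, a midpoint that no gene lay near. Cd74 at -0.31 and H2-Eb1 at -0.32 were nearer 0 than the class I median, and H2-Ab1 and H2-Aa were further from it. The comparisons share the arrays of 3 days, so these values are not independent of those above. Tap2, H2-Aa and H2-Ab1 were higher without overlap after 3 days and lower after 10 days, as were 8.18% of all genes, and their values were -3.10, -3.55 and -3.02 (adjusted p = 1 for each, limma). Within GHCre, 10 against 3 days gave a median of -0.50 in class I and 0.52 in class II (0.60 without Ciita), against 0.11 over all genes, 57.3% of them above 0. Within control it gave 0.27 in class I and 0.84 in class II (1.10 without Ciita), against 0.09 over all genes, 55.1% of them above 0. In control, Tap2 differed by 1.69 ± 0.50 (unadjusted p = 0.0284, adjusted p = 1, limma) and H2-Aa by 4.23 ± 1.84 (adjusted p = 1). In both time comparisons 0% of genes passed the adjusted threshold, and 4.02% in GHCre and 4.05% in control had an unadjusted p under 0.05.

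**Figure D5:**
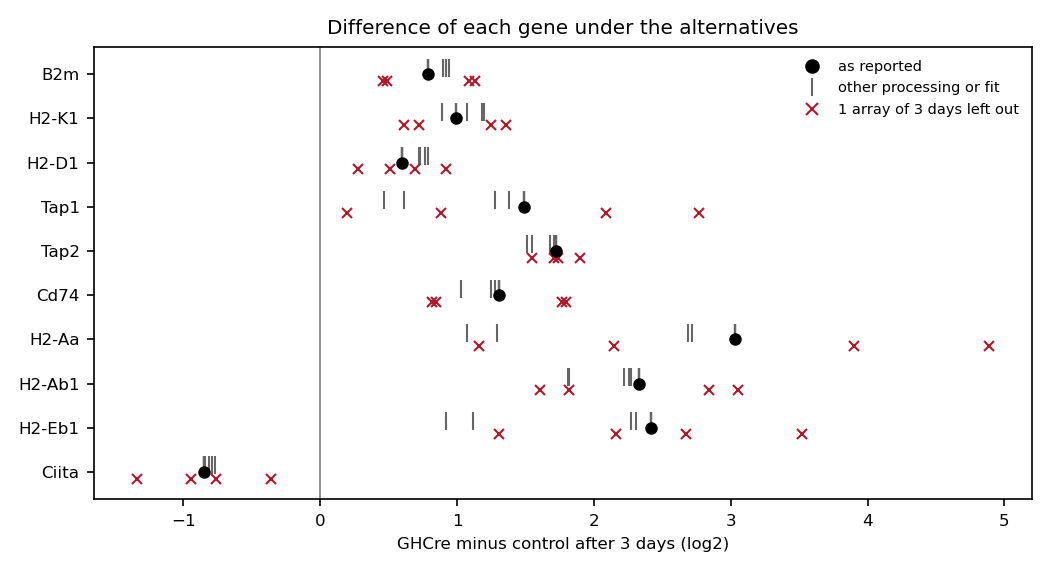
GHCre minus control after 3 days (log2) for each gene as reported (black points), under the other planned processing or fits (grey ticks) and with an array of 3 days left out (red crosses). Every value of the 9 genes other than Ciita lies above 0, and Tap1, H2-Aa and H2-Eb1 range most widely.

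Under the free-text descriptions 3 arrays change group, giving 2 arrays each described as control, regenerative and non-regenerative. The non-regenerative arrays are the GHCre arrays of 3 days. Non-regenerative minus control gave a median of 0.54 in class I and 1.07 in class II, with Tap2 at 1.65, H2-Ab1 at 2.88 and Tap1 at 0.00. Non-regenerative minus regenerative gave 1.01 in class I and 0.39 in class II. Regenerative minus control gave -0.48 in class I and -0.01 in class II. No gene passed the adjusted threshold in any of these (0 of all genes, limma). The class medians thus depend on which labels are taken, and in both classes the median of the non-regenerative arrays was above each of the other groups. By gene, Ciita was below both, at -0.70 against control and -0.25 against regenerative, and H2-Aa was -0.02 against regenerative.

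The rest of the pathway was read from gene lists that the rule did not use, and no gene of these lists passed the adjusted test in either comparison of genotypes. Of 16 other class I molecules tested, 11 were above 0 after 3 days, with a median of 0.67 against -0.04 over all genes. H2-Q8, a nonclassical class I gene, had levels of 3.06 and 2.96 in GHCre and 1.19 and 1.99 in control after 3 days, a difference of 1.42 ± 0.49 (adjusted p = 0.755, limma). H2-Q10 differed by 0.95 ± 0.42 and H2-Q4 by -0.74 ± 0.45. These genes resemble each other and the classical heavy chains in sequence, so signals may be shared. The peptide loading list, which holds tapasin, chaperones and immunoproteasome subunits, had 7 of 12 genes above 0 and a median of 0.08. Erap1, which trims peptides in the endoplasmic reticulum, differed by 1.80 ± 1.36, the inducible proteasome subunits Psmb10 by 0.59 ± 0.43 and Psmb8 by 0.56 ± 0.48, and Psmb9 by -0.06 ± 0.88. Psme3, a proteasome activator, differed by -0.53 ± 0.43, and its probe held 34 distinct words of 56. Tap1 and Psmb9, neighbours in the MHC, both overlapped between the genotypes after 3 days.

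Other class II molecules and class II peptide processing were also split. Of 5 other class II genes tested, 4 were above 0, with a median of 0.67. H2-DMa, part of the exchange factor that loads peptide, had levels of -3.31 and -0.91 in GHCre and -5.56 and -3.39 in control after 3 days, a difference of 2.37 ± 1.21 (adjusted p = 0.834, limma). It was above background on 4 of 6 arrays, and the genotypes did not overlap. The processing list of proteases and ubiquitin ligases had 4 of 8 genes above 0 and a median of -0.03, with Ifi30, a lysosomal thiol reductase, at 0.82 ± 0.45, Ctsd, cathepsin D, at 0.68 ± 0.42 and Ctss, the cathepsin that trims Cd74, at -0.27 ± 0.71.

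Regulators of MHC transcription were higher in GHCre for 11 of 14 genes after 3 days, with a median of 0.79, and for 6 of 14 after 10 days, with a median of -0.39. Irf8, a factor of myeloid and B cells, had levels of 1.79 and 1.98 in GHCre and -0.82 and 0.43 in control after 3 days, and 1.56 in GHCre and 1.45 in control after 10 days. It stood clear of control after 3 days, by 2.08 ± 0.59 (unadjusted p = 0.0246, adjusted p = 0.718, limma), and close to it after 10 days. Nfyc, a subunit of NF-Y that binds the Y box, differed by 1.41 ± 0.49, and Irf1 by 0.93 ± 0.44. Nlrc5, the class I coactivator, had levels of 0.31 and -4.06 in GHCre and -0.68 and -2.99 in control after 3 days, a difference of -0.04 ± 1.78 with wholly overlapping groups.

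Interferons and their receptor path were above 0 in 10 of 10 genes after 3 days, with a median of 0.63, and in 6 of 10 after 10 days, with a median of 0.19. Ifnb1, interferon beta, had levels of -0.33 and -1.76 in GHCre and -5.90 and -4.88 in control after 3 days, and -4.20 in GHCre and -4.70 in control after 10 days. Neither control array of 3 days was well above background. Ifnb1 passed the filter only with the GHCre arrays of 3 days, where it was high, so no fold or p-value is given. Tyk2, a kinase of the type I receptor, was above background on 1 of the 2 GHCre arrays and on neither control array after 3 days, so no fold is given, and Jak2 differed by 1.68 ± 0.68. The count and median of this list after 3 days include Ifnb1 and Tyk2. Ifng, interferon gamma, had levels of -0.15 and 0.12 in GHCre and 1.26 and -1.40 in control after 3 days, so the GHCre values lay between the controls. Ifnar2, Jak1, Socs1 and Ifng had differences of 0.14 or below, near 0.

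Costimulatory genes, whose products give the second signal to T cells beside the MHC, were above 0 in 4 of 5 cases after 3 days with a median of 2.01, and in 1 of 5 after 10 days with a median of -0.86. Cd86 had means of -2.81 in GHCre and -6.17 in control after 3 days. It was above background only on the 2 GHCre arrays of 3 days and passed the filter through them. Its direction was thus set by the filter, so no fold or p-value is given, though the count and median after 3 days include it. Cd274, the inhibitory ligand PD-L1, had levels of 0.58 and -0.09 in GHCre and -1.72 and -1.81 in control after 3 days, and -2.15 in GHCre and -0.67 in control after 10 days. It differed by 2.01 ± 0.46 after 3 days (unadjusted p = 0.0117, adjusted p = 0.692, limma), and was below control after 10 days. Icosl, the ligand of ICOS, differed by 2.4 ± 0.94, and Cd80 by -1.20 ± 0.61.

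Markers of cells that present antigen were measured beside these genes, and their part in the results was not tested. Of 6 dendritic cell markers tested, 4 were above 0 after 3 days with a median of 1.25, and their summed signal, in multiples of the 75th percentile, was 6.09 to 11.17 in GHCre and 7.55 to 7.68 in control. At least 50.6% of the dendritic sum was Siglech. Without Siglech the sums still overlapped, at 5.51 and 1.18 in GHCre and 0.47 and 1.32 in control. Itgax, the CD11c gene, had levels of -1.23 and -1.65 in GHCre and -5.37 and -1.99 in control after 3 days, lowest in the array where H2-Aa was lowest. Flt3, another dendritic marker, was nearly level at -3.76 and -3.06 in GHCre and -3.64 and -3.16 in control. Of 13 macrophage markers 7 were above 0 with a median of 0.20, and the summed signal was 168.19 to 170.69 in GHCre and 198.25 to 237.09 in control. At least 76.1% of that sum was Itgam, whose probe held 35 distinct words, above the limit set for repeat-like probes. Without Itgam the sums overlapped, at 40.28 and 40.40 in GHCre and 43.84 and 38.85 in control. The 3 macrophage markers of lowest p, C1qc, Mertk and Cd14, were higher in GHCre after 3 days. Mertk was at least 2.82-fold higher as a group mean (adjusted p = 0.689, limma), and Cd14 differed by 1.92 ± 0.55 (adjusted p = 0.721, limma). C1qc and Mertk had no signal above background in either control of 3 days. C1qc read 0.32 and -3.03 in GHCre and passed the filter only with these arrays, so no fold or p-value is given. The count and median after 3 days include C1qc. After 10 days the single GHCre array lay below its control for all 3 markers, at -6.19 against -0.76 for C1qc. C1qb, above background on all 6 arrays, differed by -0.26 ± 0.44 after 3 days. Csf1r, a defining macrophage gene, was lower in both GHCre arrays of 3 days (4.29 and 4.18) than in control (4.93 and 4.75). Cd68 overlapped at -3.08 and 0.43 in GHCre and -1.56 and 0.37 in control.

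Ptprc, the CD45 gene of all leukocytes, had levels of -0.88 and -0.36 in GHCre and -1.36 and -0.37 in control after 3 days, and differed by 0.25 ± 0.56. Pan-leukocyte markers were above 0 in 4 of 6 (median 0.23), with summed signal of 5.42 to 11.40 in GHCre and 4.34 to 9.64 in control. B cell markers were above 0 in 2 of 4 (median -0.10), with summed signal of 1.90 to 2.26 in GHCre and 1.80 to 2.39 in control. The groups of these lists overlapped. T and NK cell markers were above 0 in 7 of 9 (median 0.94), with summed signal of 35.49 to 39.80 in GHCre and 19.96 to 22.14 in control, which did not overlap. Of all single genes tested, 16.7% were likewise higher without overlap. Cd3e, of the T cell receptor complex, had levels of 3.19 and 3.34 in GHCre and 2.32 and 2.46 in control after 3 days. The coreceptor genes of the same list were lower, Cd8a by -2.35 ± 0.82 (unadjusted p = 0.0448, adjusted p = 0.757, limma) and Cd4 by -1.16 ± 0.43.

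Endothelial markers were above 0 in 7 of 8 (median 0.90), with summed signal of 5.94 to 8.07 in GHCre and 4.48 to 5.31 in control, and fibroblast and mural markers in 9 of 10 (median 0.60), with 218.59 to 267.33 in GHCre and 136.83 to 206.76 in control. Neither list overlapped between genotypes after 3 days, where 16.7% of all single genes tested were higher without overlap. Col1a1, a collagen chain of fibroblasts, had levels of 2.85 and 2.38 in GHCre and 2.10 and 1.38 in control. Pituitary stem cell markers were above 0 in 9 of 12 (median 0.48), with 76.34 to 80.34 in GHCre and 80.66 to 88.09 in control. That count and the sums include Aqp3, which was above background only on the 2 GHCre arrays of 3 days, so its direction was set by the filter. Hormone genes were above 0 in 2 of 6 (median -0.56), with 1310.6 to 1613.09 in GHCre and 2144 to 2273.65 in control. At least 63.1% of the stem cell sum was Trp63, whose probe held 38 distinct words, also above the limit set for repeat-like probes. Without Trp63 the sums were 28.83 and 28.19 in GHCre and 24.45 and 20.80 in control, higher in GHCre. Prl made up at least 82.1% of the hormone sum, and without it the sums overlapped, at 67.99 and 8.46 in GHCre and 107.74 and 16.01 in control. The sums of the T and NK, endothelial and fibroblast lists were higher in both GHCre arrays also without their brightest gene. For the endothelial list the margin was then narrow, at 2.27 in GHCre replicate 2 and 2.18 in control replicate 1.

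The genes whose centred profile over the 6 arrays lay nearest to the class I mean were Rbbp6, Anxa2 and Hey1, with a root mean square difference of 0.0825, 0.0959 and 0.104 log2 units, against a median of 0.745 over 11666 genes. Anxa2, a calcium-dependent membrane protein, stood at 0.95 and 0.20 in GHCre and -0.32 and -0.71 in control after 3 days. Nearest to the class II mean were Thy1, Ephx1 and Tnfaip3, at 0.164, 0.165 and 0.202, against a median of 0.98. Thy1, a surface protein of T cells, neurons and some stromal cells, stood at 0.45 and 1.07 in GHCre and -1.73 and -0.22 in control, and Tnfaip3 is an inhibitor of NF-kB signalling. The members themselves did not all lie near these means. From the class II mean, H2-Aa (1.35), Ciita (1.29) and H2-Ab1 (1.06) lay further than the median gene, and Cd74 (0.385) and H2-Eb1 (0.754) nearer. From the class I mean, only Tap1 (0.792) lay further than the median gene. Likeness to the class II mean, which includes Ciita, is thus not likeness to each class II gene. These rankings describe likeness over 6 arrays and carry no test.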

How the data were processed

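Per the file headers, Agilent Feature Extraction 10.7.3.1 made the deposited intensity of each spot from a 1-colour scan, subtracting background. Values in the deposited series table are log2 and match quantile normalized processed signal (correlation of at least 0.9999) and were used as an alternative. Per the labels, 25000 to 50000 cells were sorted, and 1 ng of RNA was amplified, which can add spread to dim genes.

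Replicate spots were averaged on the log2 scale, the 75th percentile of each array was subtracted, and the brightest probe stood for a gene. Probes were named by accession (27234 probes) or by the file's symbol. The 20923 genes well above background on at least 2 of 6 arrays were fitted with limma 3.58.1 in R 4.3.3, with 4 group means, 2 residual degrees of freedom and Benjamini-Hochberg adjustment at 0.05. Positions of probes are those of mm9 in the files, and no position was converted. A fold given as "at least" sets arrays without signal to their lowest signal above background and compares group means, so a single array can lie below it. The fit was tested on simulated data. Precision is limited by the number of arrays.

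Named were all 10 genes, up to 3 genes of lowest p in each pathway list and fixed cell markers. Other genes named (Aqp3, C1qb, C1qc, Mertk, Cd14, Cd8a, Cd4, Psmb8, Psmb9, Ctss, Nlrc5, Ifng, Ifnar2, Jak1, Socs1, Cd80) were chosen after their values were seen. The members, lists and tests were chosen with earlier results of these data known, and the description grouping, the repeat-probe check, class II without Ciita and list sums without the brightest gene were added after seeing the data. Python 3.11.15 with matplotlib 3.10.9 drew the plots.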

Additional observations from a re-analysis of the deposited data

Results flagged for a closer look

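For 3 of the 10 genes the difference between genotypes had opposite signs at 3 and 10 days: both GHCre arrays lay above both controls after 3 days, and the GHCre array lay below its control after 10 days. The 10 day effect minus the 3 day effect was -3.10 for Tap2, -3.55 for H2-Aa and -3.02 for H2-Ab1 on the log2 scale, each with an adjusted p of 1 (limma). Among all genes, 8.18% showed this pattern. It rests on 1 array of each genotype after 10 days, on different slides.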

How the results depend on the processing

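After 3 days, 9 of 10 genes were above 0 under every alternative that tested all 10, and 6 of 7 with signal required on all 6 arrays, where H2-Aa, H2-Eb1 and Tap1 drop out. In every alternative 0 of the 10 genes and 0 genes in all passed the adjusted threshold, with 784 to 2284 genes at an unadjusted p under 0.05 after 3 days. The class II median after 3 days was 1.03 and 1.12 with normexp correction and 75th percentile or quantile scaling, and 1.31 with signal on all arrays, and class I minus class II was then -0.13, -0.18 and -0.42; the cause was not tested. With an array of 3 days left out, the class I median ran from 0.51 to 1.36, the class II median from 1.16 to 2.67 and class I minus class II from -2.05 to 0.19. For the 10 day minus the 3 day effect these ran from -1.04 to -0.19, -1.43 to 0.15 and -1.18 to 1.21. The reported signs of that effect, none of them called, turned for H2-Eb1 with quantile normalization (0.03), normexp and 75th percentile (0.12) and the series table (0.01), and for Tap1 with normexp (0.12 and 0.06). With an array left out it ran from -0.80 to 0.17 for Cd74, -0.55 to 0.09 for H2-D1, -1.65 to 0.93 for Tap1 and -1.43 to 0.79 for H2-Eb1. The median of all genes after 3 days was -0.04 as reported, -0.15 with normexp and 75th percentile, -0.16 with no filter, -0.11 with signal on all arrays, and -0.12 without control replicate 1 or without GHCre replicate 2. With normexp, H2-Aa was 1.07, H2-Eb1 0.92 and Tap1 0.47 after 3 days.

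The replicate numbers give 2 pairs, whose deviations correlated at 0.0868 across genes, so the numbers were not taken to pair the samples. A replicate block splits the arrays of 3 days as the slides do, so its result after 3 days repeats that of the slide block. With a replicate block, 0 genes passed in each comparison, and 4 of the 10 genes and 6.96% of all genes had an unadjusted p under 0.05 after 3 days, against 2 genes and 6.58% without it. The slide as a block could not be fitted for comparisons that use the control array of 10 days, which is alone on its slide.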

Other observations

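The 5 other listed genes whose probes held the fewest distinct words, all above the limit of 30, also had differences below 0. Psme3 (34 distinct 5-base words of 56), Itgam (35), Trp63 (38), Marchf1 (39) and Siglech (40) differed by -0.53, -0.44, -0.31, -0.47 and -0.35 after 3 days. They were picked out after their values were seen, and the next listed probes lay above 0, namely Col1a1 (42 words, 0.88), Irf8 (43, 2.08) and Ifngr1 (45, 0.93). Itgam, a macrophage marker, stood at 7.0 and 7.03 in GHCre and 7.59 and 7.32 in control. After 10 days the 157 probes of at most 30 words had a median difference of -0.28, and 79% were below 0, against 0.00 and 50% for other probes.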
